A study of Mus musculus with 12 samples.

Results

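The genes described here encode the core and the known associates of the CoREST and LSD1 complexes: the scaffolds Rcor1, Rcor2 and Rcor3, the demethylase Kdm1a (LSD1), the associated subunits Phf21a and Hmg20b, and the co-purifying proteins Gse1, Zmym2 and Zmym3. They were chosen by name, 9 of the 20409 genes listed in the tables of the 3 screens, and all 9 were found there. In ORFtag, a retroviral cassette that carries a strong promoter, a tag and a splice donor lands at random in the genome, and its transcript can splice into the next exon of a nearby gene, so that the tag is fused to the protein made from that exon onward. Cassettes of all 3 reading frames were mixed, cells whose reporter changed were sorted, and the insertions were mapped in sorted and in unsorted cells. What was measured is therefore the number of distinct insertion positions at each gene, and not expression, so the cell identity could not be checked against marker genes.

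The cells were diploid mouse embryonic stem cells from the originally haploid line AN3-12, labelled wild type with the reporter, and each reporter line was a single clone. In the repressor screen the line carried pEF1-BFP-7xTetO-pPGK-Puro-IRES-GFP at a chromosome 15 locus, the cassette tag was TetR, which binds TetO sites, and cells that lost GFP were sorted. In the activator screen the line carried 7xTetO-pMYLPF-Puro-IRES-GFP at that same locus, the tag was again TetR, and cells that gained GFP were sorted. In the PTGR screen, which sought regulators acting after transcription, the line carried a randomly integrated Puro-IRES-GFP-10xBoxB, the tag was λN, which binds boxB hairpins in the reporter RNA, and sorting ran over several rounds. That line also carried a retroviral CreERT2, and its sorted cells were treated with 4-hydroxytamoxifen before the last sort, to cut the boxB sites out of the reporter. Each screen gave 2 sorted and 2 unsorted libraries, 12 in all. The study describes the replicates as biological.

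An insertion counted for a gene when it lay at most 200 kb upstream of the splice acceptor of a non-first exon of that gene, in the sense orientation. The sorted libraries held 14705 to 60980 such positions and the unsorted ones 54088 to 233799. The background is the sum of the 6 unsorted libraries. Values per library are given per 100000 insertions of that library, and intervals on them cover counting error alone. Sorted repressor replicates shared more exact positions than the other pairs did: 4186 positions were in both, which was 18.8% of replicate 1 and 27.5% of replicate 2, against 2.21% and 2.61% in the activator screen and 0.648% and 0.675% in the PTGR screen. What shared positions contribute was not tested as a cause, and the results without them are given below.

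CoREST is a chromatin complex that represses transcription. In it, an RCOR protein holds together the amine oxidase LSD1, which removes methyl groups from the lysine at position 4 of histone H3, and the histone deacetylases HDAC1 and HDAC2. Sequence-specific factors such as REST bring the complex to promoters, and in embryonic stem cells it is known for acting on enhancers and on neuronal genes.

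The sequences that carry the main result are the splice acceptors that received the insertions of the sorted repressor cells, since the assignment of an insertion to an acceptor gives the part of the protein that a fusion would hold. No transcript or splice junction was measured. Each is printed 5′ to 3′ on the strand of the gene, with 20 bases of intron, in which the terminal AG is in capitals, and 10 bases of exon. They were read from GRCm38.p6, the assembly behind mm10, and the exon numbers are those of the insertion lists. The Phf21a acceptor of exon 2 is shown because the background, but not the sorted repressor cells, used it. For Rcor2 exon 2 the window is chr19:7269745-7269774 (plus strand), for Kdm1a exon 2 chr4:136593121-136593150 (minus strand), for Gse1 exon 2 chr8:120553564-120553593 (plus strand), for Phf21a exon 5 chr2:92320209-92320238 (plus strand) and for Phf21a exon 2 chr2:92186531-92186560 (plus strand).
Rcor2 exon 2: tgcctcccctggctccacAGacagcatgat
Kdm1a exon 2: ctggtataatctccatgtAGgtagaataca
Gse1 exon 2: ttcttcttttcctgtttcAGgcatgagcca
Phf21a exon 5: cgtttgtcttcatttggtAGaaaagagtag
Phf21a exon 2: accatctacttggtttacAGccttgtagga

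In the repressor screen, insertions at 4 of the 9 genes rose in sorted cells: Rcor2, Kdm1a, Phf21a and Gse1. A gene was called when a one-sided Fisher's exact test against the background, adjusted over all tested genes by the Benjamini-Hochberg method, gave a p below 0.001 with a log2 odds ratio of at least 1, and a gene was tested when it had at least 3 sorted insertions. Of the 9 genes 7 were tested, and across all genes 192 of 2346 tested were called (8.18%). Both sorted libraries exceeded all 6 unsorted ones at 5 of the 9 genes, namely those 4 and Rcor1, where the share over all tested genes was 16.6%. The median log2 odds ratio was 2.41 over the 7 tested members and -0.39 over all tested genes. Both medians leave out genes with fewer than 3 sorted insertions, among the members Rcor3 and Zmym2. The called genes together took 54.8% of the sorted repressor insertions, which lowers the share of every other gene.

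**Figure D1:**
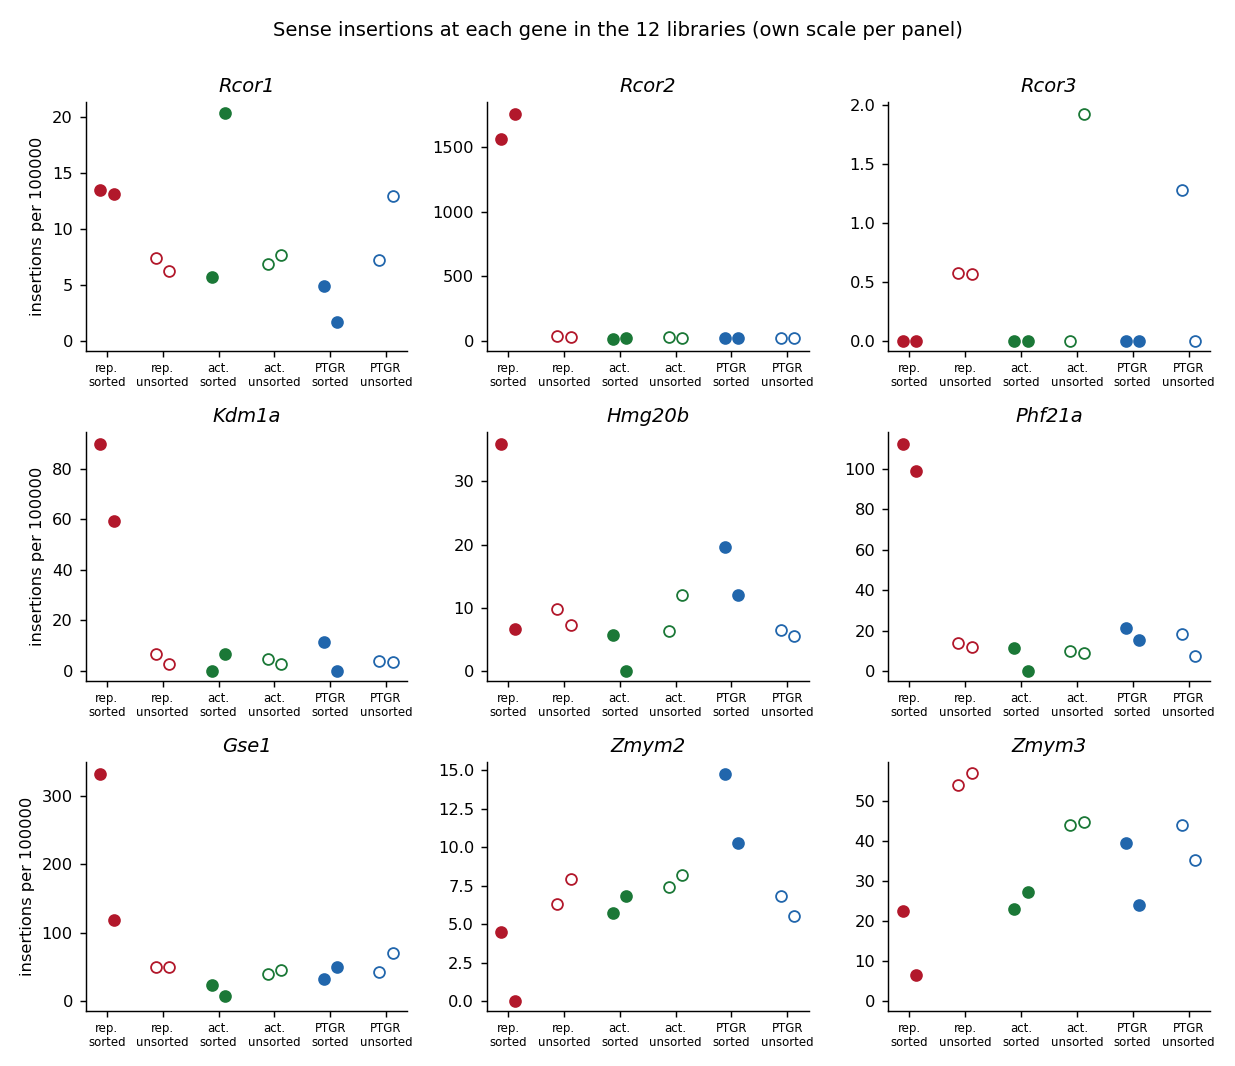
Sense insertions per 100000 at each of the 9 genes (y axis, own scale per panel) in the sorted and unsorted libraries of the repressor, activator and PTGR screens (x axis), with 1 point per library. The sorted repressor points stand above all other points for Rcor2, Kdm1a, Phf21a and Gse1, whereas those of Zmym3 lie below the unsorted ones.

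Rcor2 is 1 of the 3 RCOR scaffolds, proteins with an ELM2 and SANT domains that link LSD1 to the deacetylases, and its gene (ENSMUSG00000024968) lies at chr19:7267325-7275225 on the plus strand. The sorted repressor replicates held 347 and 267 insertions, or 1558 and 1756 per 100000. The 6 unsorted libraries ranged from 21.8 to 40.7 per 100000, with a median of 26.0. The groups did not overlap, and the 2 highest unsorted values were those of the repressor screen itself. The log2 odds ratio was 5.86 ± 0.10 (SE), with a Fisher's exact p too small for floating-point arithmetic, and Rcor2 had the 6th most sorted insertions and the 20th highest odds ratio of the 192 called genes.

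The other scaffolds gave few insertions. At Rcor1 (ENSMUSG00000037896, chr12:111039351-111115901, plus strand) the sorted replicates held 3 and 2 insertions, or 13.5 and 13.2 per 100000. The unsorted libraries ranged from 6.22 to 12.9, with a median of 7.37. Both sorted values were thus just above the highest unsorted value, that of PTGR unsorted replicate 2, but the gene was not called (log2 odds ratio 0.84 ± 0.67, Fisher's exact adjusted p = 0.796). At Rcor3 (ENSMUSG00000037395, chr1:192098546-192138062, minus strand) no sorted repressor library held an insertion, which allows up to 8.01 per 100000 over both replicates (3 counts). The background held only 9, so a fall or a small rise at Rcor3 was not detectable at this depth.

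Kdm1a encodes the catalytic subunit LSD1 (ENSMUSG00000036940, chr4:136550540-136602723, minus strand). The sorted repressor replicates held 20 and 9 insertions, or 89.8 and 59.2 per 100000. Without sorting the 6 libraries ranged from 2.83 to 6.89, with a median of 3.77. Both sorted libraries therefore lay far above every unsorted one at a gene that seldom received insertions without sorting, with 42 in the whole background. The log2 odds ratio was 4.24 ± 0.35 (Fisher's exact adjusted p = 2.93e-22).

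Phf21a, also known as BHC80, has a PHD finger that binds histone H3 with an unmethylated lysine 4 (ENSMUSG00000058318, chr2:92093117-92364666, plus strand). The sorted repressor replicates held 25 and 15 insertions, or 112 and 98.7 per 100000. Those of the unsorted cells ranged from 7.40 to 18.4, with a median of 10.8. The sorted values were close to each other and did not overlap with the unsorted ones (log2 odds ratio 3.10 ± 0.26, Fisher's exact adjusted p = 1.37e-20).

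Hmg20b, or BRAF35, is an HMG-box protein that binds DNA (ENSMUSG00000020232, chr10:81346048-81350480, minus strand). The sorted repressor replicates held 8 and 1 insertions, or 35.9 and 6.58 per 100000. The unsorted libraries ranged from 5.55 to 12.04, with a median of 6.88. Replicate 1 was above all unsorted libraries and replicate 2 was inside their range, and the gene was not called (log2 odds ratio 1.55 ± 0.51, Fisher's exact adjusted p = 0.0533). The 1 insertion of replicate 2 was at a position also found in replicate 1. With depth counted over insertions outside the called genes, a setting chosen after seeing the data, Hmg20b was called at 2.65 (Fisher's exact adjusted p = 0.000295). That setting raises the odds ratio of every gene outside the called ones, and the share of all genes it calls was not counted.

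Gse1 is a coiled-coil protein found with the LSD1 complexes (ENSMUSG00000031822, chr8:120228456-120581390, plus strand), and its gene is the longest of the 9. The sorted repressor replicates held 74 and 18 insertions, or 332 and 118 per 100000. In unsorted cells the range was 39.3 to 70.3, with a median of 47.0. Both sorted libraries were above all unsorted ones but differed widely from each other (log2 odds ratio 2.41 ± 0.16, Fisher's exact adjusted p = 1.83e-32). Without sorted replicate 1 the remaining 18 insertions gave 1.36 (Fisher's exact adjusted p = 0.00231), and the call was lost.

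The MYM-type zinc finger genes did not rise. At Zmym3 (ENSMUSG00000031310, chrX:101404384-101420849, minus strand) the sorted repressor replicates held 5 and 1 insertions, or 22.5 and 6.58 per 100000. The unsorted libraries ranged from 35.1 to 57.1, with a median of 44.4. Zmym3 had the largest background of the 9 genes, 487 insertions, and both sorted values lay below all unsorted ones. The share of all genes for which this held was not counted. The log2 odds ratio was -1.57 ± 0.59, and -0.47 with depth counted outside the called genes. The two-sided edgeR quasi-likelihood test against the 2 unsorted repressor libraries gave an adjusted p of 0.143. At Zmym2 (ENSMUSG00000021945, chr14:56886653-56962701, plus strand) the sorted replicates held 1 and 0 insertions against 74 in the background, too few for the test.

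**Figure D2:**
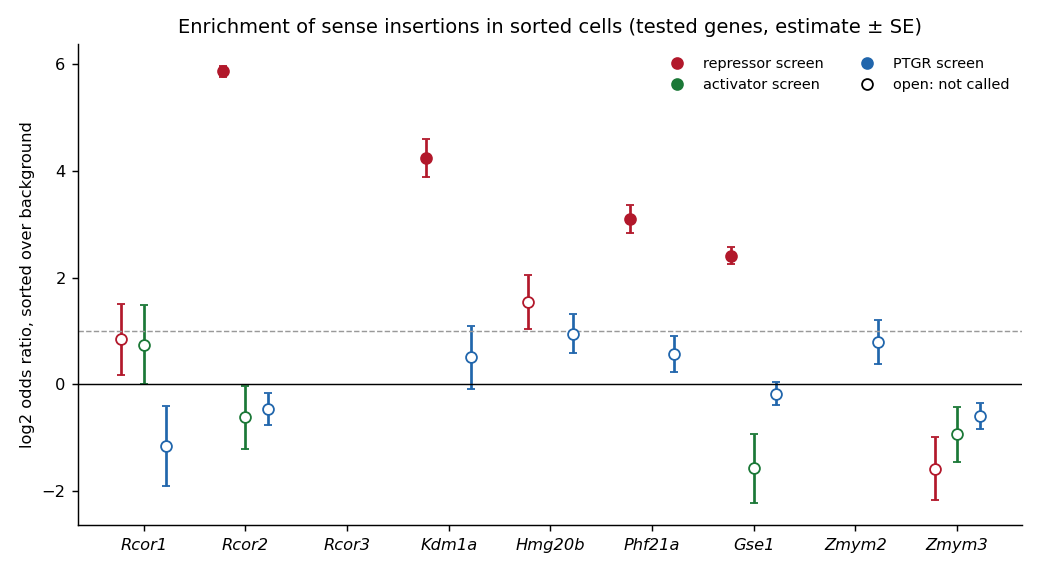
Log2 odds ratio of sorted over background sense insertions (y axis) for each tested gene (x axis) in the 3 screens, with bars of 1 SE; filled points were called and open points were not. Filled points appear in the repressor screen alone, from 2.41 for Gse1 to 5.86 for Rcor2.

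The Fisher's exact test pools the replicates, so it carries no spread between them. With edgeR's quasi-likelihood test, which does, of the 2 sorted against the 2 unsorted repressor libraries, 198 of 7688 genes were called at an adjusted p below 0.05 and a log2 fold change of at least 1 (2.58%). The same 4 genes were among them. Rcor2 had a log2 fold change of 5.76 ± 0.34 (edgeR adjusted p = 4.55e-63) and Kdm1a of 4.27 ± 0.51 (edgeR adjusted p = 3.81e-15). For Phf21a it was 3.35 ± 0.38 (edgeR adjusted p = 1.88e-16) and for Gse1 2.60 ± 0.26 (edgeR adjusted p = 4.90e-21). DESeq2 called these 4 as well, with Gse1 at an adjusted p of 0.00134. The sorted repressor replicates shared many positions, so the spread between them may be understated. Neither edgeR nor DESeq2 was run without those positions.

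Insertions that drive a fusion should run in the sense direction of the gene, and the deposited lists also assign insertions with their orientation reversed, which gives a control without any splice into the gene. In the reversed lists Fisher's exact test called none of the 9 genes in any screen. Tested were 3 in the repressor screen, where 5.61% of all tested genes were called, 2 in the activator screen (3.14%) and 8 in the PTGR screen (0.500%). At an unadjusted Fisher's exact p below 0.05 the counts were 0, 0 and 1, and edgeR and DESeq2 called 0 in each screen.

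Within 200 kb of Rcor2, 614 of 616 sorted repressor insertions were sense, 99.7% (95% Wilson interval 98.8 to 99.9), against 50.4% (46.4 to 54.5) of 581 in the background. Of the unsorted libraries, repressor replicate 1 had the highest sense share, 71.0%. All 29 sorted repressor insertions at Kdm1a were sense (88.3 to 100), against 65.6% (53.4 to 76.1) in the background. A sense excess in the sorted cells was thus present at both genes.

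At Gse1 92 of 98 were sense, 93.9% (87.3 to 97.2), against 55.3% (52.0 to 58.6), and at Phf21a 40 of 45, 88.9% (76.5 to 95.2), against 61.1% (54.3 to 67.4). For these 4 genes the sorted and background intervals did not overlap. Hmg20b had 9 of 11 sense, 81.8% (52.3 to 94.9), against 58.7% (50.5 to 66.5), and the intervals overlapped. At Zmym3 the share ran the other way, 6 of 18 or 33.3% (16.3 to 56.3) against 51.2% (48.0 to 54.3), again with overlap. The 5 sorted insertions at Rcor1 were all sense, an interval of 56.6 to 100, and its background share was 47.2% (39.6 to 54.9). These intervals did not overlap, but 1 of the sorted positions was in both replicates and was counted in each. The distinct sorted positions were 4, and a Wilson interval for 4 of 4 starts at 51.0, inside the background interval. The lack of overlap at Rcor1 thus rests on the shared position.

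**Figure D3:**
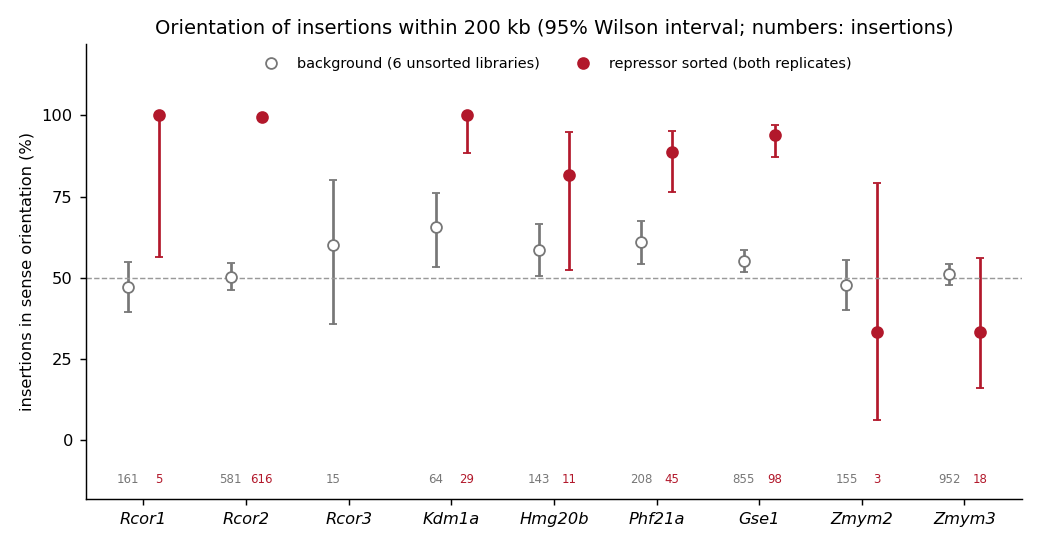
Share of insertions within 200 kb that were in the sense orientation (y axis, percent) for each gene (x axis), in the background of 6 unsorted libraries (open) and in both sorted repressor replicates together (filled), with 95% Wilson intervals and the number of insertions. The sorted share lay at 88.9% or above for Rcor2, Kdm1a, Gse1 and Phf21a, and for Rcor1 with 5 insertions.

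The assigned acceptors give the part of each protein that a fusion in the right frame would hold. All 614 sorted repressor insertions at Rcor2 were assigned to exon 2, whose first base is at position 7269765 of chromosome 19, as were 292 of the 293 in the background. Splicing into it would keep 480 of the 523 residues of transcript Rcor2-201. At Kdm1a all 29 sorted insertions were assigned to exon 2, which keeps 755 of 873 residues of Kdm1a-202, against 34 of 42 in the background. At these genes the sorted cells thus used the acceptor that the background also used most.

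At Gse1 the same held, with 89 of 92 sorted and 465 of 473 background insertions at exon 2, which keeps 1210 of the 1223 residues of Gse1-201. The 9 sorted Hmg20b insertions and the 6 of Zmym3 were assigned to exon 2, as were all 84 and 486 of 487 in the background. The acceptors of the sorted insertions, which also took 83 of the 84 and the 486, begin exons 18 and 13 bases before the ATG, without an in-frame stop codon, so a fusion would keep the whole protein. At Rcor1 4 of the 5 sorted insertions were assigned to exon 2, which keeps 385 of 480 residues.

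Phf21a differed. Of its 40 sorted repressor insertions 38 (95%) were assigned to exon 5, the acceptor at position 92320229 of chromosome 2, against 14 of 127 (11.0%) in the background. Exon 5 is coding, and a fusion to it would keep 608 of the 659 residues of Phf21a-204. The background was instead assigned mostly to an exon 2 acceptor at position 92186551 (66 of 127, 52.0%) and to another exon 2 acceptor, of a second transcript, at position 92214049 (44 of 127, 34.6%). Both lie before the start codon: the first begins 302 bases before the ATG with 4 stop codons in the frame of the ATG, and the other 243 bases before it with 3. Neither received any sorted repressor insertion, whereas 18 of the 22 sorted PTGR insertions at Phf21a were assigned to the acceptor at 92186551.

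Counted for exon 5 alone, the sorted repressor replicates held 23 and 15 insertions, or 103 and 98.7 per 100000. The unsorted repressor libraries held 6 and 5, of which 4 in each were at positions also found in sorted repressor cells. The unsorted activator libraries held 0 and 1, the unsorted PTGR libraries 2 and 0, and no sorted activator or PTGR library held any. Exon 5 insertions were therefore rare outside the repressor screen. The log2 odds ratio was 6.21 ± 0.45 for exon 5 and -1.05 ± 1.03 for all other exons together, with 2 sorted insertions against 113. These are a description without a test, because the exon was singled out after its values were seen. The sorted exon 5 insertions fell at 35 distinct positions between 92231675 and 92304448, all in introns.

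**Figure D4:**
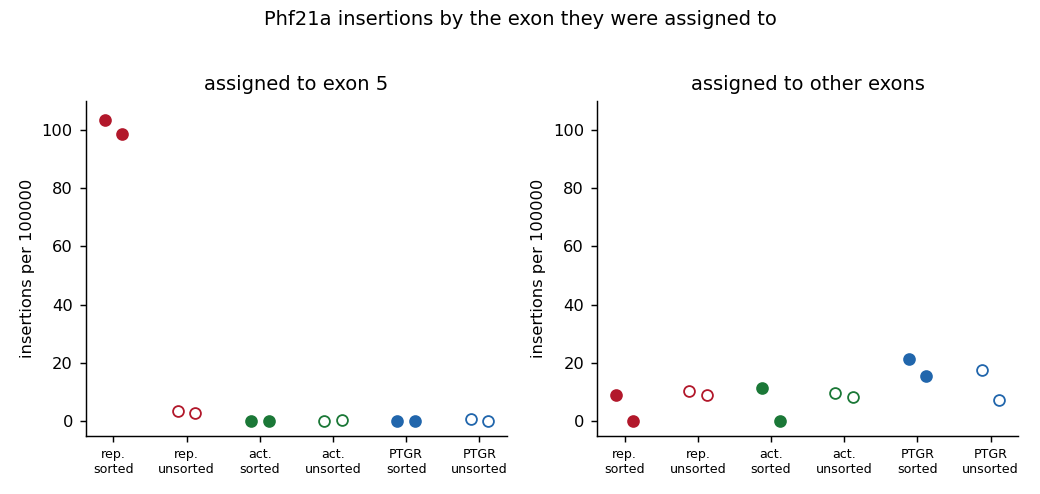
Phf21a insertions per 100000 (y axis) assigned to exon 5 and to all other exons (panels) in each library of the 3 screens (x axis). Sorted repressor replicates reach 103 and 98.7 for exon 5, and no unsorted library exceeds 3.44 there.

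The distance from an insertion to the exon it was assigned to also differed between genes. At Rcor2 the median was 8470 and 7148 bases in the sorted repressor replicates against 10223 in the background, and 583 of the 614 lay upstream of the annotated gene. Within 10 kb lay 64.6% and 74.2% of the sorted insertions and 49.5% of the background. The 614 sorted insertions occupied 21 windows of 1 kb, the fullest with 84. The 293 of the background occupied 41, the fullest with 30. The sorted insertions thus spread over many windows, but over fewer than the background did. The 103 positions found in both sorted replicates were counted in each.

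At Kdm1a the medians, 10324 and 11423 bases, were near the 11186.5 of the background, and 24 of 29 sorted insertions lay upstream of the gene. At Gse1 all 92 sorted insertions were intronic, and their medians of 24530 and 21552 bases were below the background's 47443. Within 50 kb lay 79.7% and 88.9% of them, against 50.7% of the background. At Phf21a the order was reversed, with 76729 and 79628 bases against 39255. There 38 of the 40 sorted insertions belonged to exon 5 and most of the background to exon 2. With a limit of 50 kb, 12 sorted Phf21a insertions were left and the gene was not called (log2 odds ratio 1.79, Fisher's exact adjusted p = 0.00312).

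**Figure D5:**
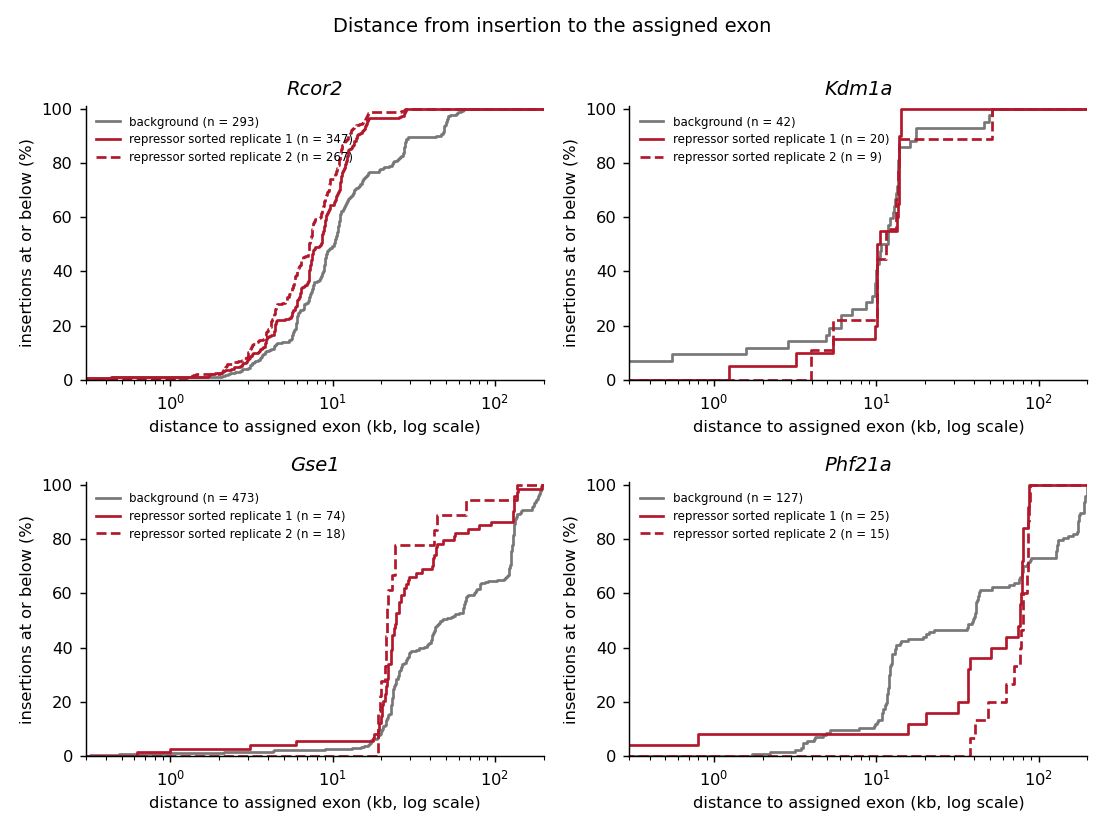
Cumulative share of insertions (y axis, percent) at or below each distance to the assigned exon (x axis, kb, log scale) for the 4 called genes, in each sorted repressor replicate and in the background. The sorted curves lie left of the background for Rcor2 and Gse1 and right of it for Phf21a, with medians of 76729 and 79628 bases there.

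The exon 2 acceptor of Gse1 lies more than 200 kb from the annotated start of the gene, so insertions in the first part of the gene are left out of the counts above. Beyond that limit the sorted repressor replicates held 38 and 11 Gse1 insertions, or 841 and 309 per 100000 of all insertions beyond 200 kb. The unsorted libraries ranged from 87.4 to 132, with a median of 98.4 and 367 insertions in all. All 49 sorted insertions lay inside the annotated gene, as did 364 of the 367. The groups did not overlap, and the log2 odds ratio was 2.58 ± 0.22 (Fisher's exact adjusted p = 4.29e-19). It comes from insertions not counted within 200 kb, although from the same libraries. Its size cannot be set against the value within 200 kb, because it is relative to insertions beyond 200 kb alone. Sorted repressor replicate 1 held 4521 of those beside 22266 within 200 kb, and unsorted repressor replicate 1 held 62771 beside 174276. In the repressor screen 1.75% of genes tested beyond 200 kb were called.

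In the activator screen Gse1 had 10 and 6 insertions beyond 200 kb, or 185 and 199 per 100000, and was not called (log2 odds ratio 0.90 ± 0.37, Fisher's exact adjusted p = 0.242), where 0.473% of tested genes were. In the PTGR screen it had 12 and 12, or 48.0 and 57.5, and a log2 odds ratio of -0.96 ± 0.30, where 0.370% were called. Relative to insertions beyond 200 kb alone, both sorted activator values exceeded and both sorted PTGR values fell below the range of the unsorted libraries. Relative to all insertions this was not examined. The values rest on few insertions, and the share of all genes beyond 200 kb that lay outside that range was not counted. Beyond 200 kb the sorted repressor libraries held 4 insertions at Phf21a against 166 in the background and 4 at Zmym3 against 136. At the other 6 genes they held none.

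The activator screen shared the locus and the tag of the repressor screen, but none of the 9 genes was called there by Fisher's exact test, against 4.64% of tested genes, and none by edgeR or DESeq2. At an unadjusted p below 0.05 Fisher's exact test gave 0 and the two-sided edgeR test 1, Gse1, which was lower in sorted cells (log2 fold change -1.48, edgeR adjusted p = 0.459). Of the 9 genes 4 had enough insertions for Fisher's exact test. Rcor2 held 3 and 3 (log2 odds ratio -0.62 ± 0.60), Gse1 4 and 1 (-1.57 ± 0.65) and Zmym3 4 and 4 (-0.94 ± 0.51). Over all tested genes the median log2 odds ratio was -0.14. At Rcor2, Gse1 and Zmym3 both sorted libraries were below every unsorted one. The share of all tested genes for which this held was not counted, so it is no result about these genes. The called genes took 34.2% of the sorted activator insertions, which lowers the share of every other gene. Rcor1 held 1 and 3 (0.74 ± 0.74). The remaining genes held 0 to 2 sorted insertions in all, and no member had both sorted libraries above all unsorted ones, against 11.6% of tested genes.

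In the PTGR screen 8 genes were tested and Fisher's exact test called none, against 0.666% of all tested genes, and edgeR and DESeq2 also called none. The largest log2 odds ratio was that of Hmg20b, with 12 and 7 sorted insertions (0.95 ± 0.37, Fisher's exact adjusted p = 0.238). Zmym2 followed with 9 and 6 (0.79 ± 0.41, Fisher's exact adjusted p = 0.430). At an unadjusted Fisher's exact p below 0.05 these 2 passed, and with edgeR Hmg20b alone did. Zmym2 was also the only member with both sorted libraries, at 14.8 and 10.2 per 100000, above all unsorted ones, of which the highest had 8.19, where 7.83% of tested genes did so.

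The genes called in the repressor screen were not called in the PTGR screen, and their odds ratios there had both signs. Rcor2 held 13 and 12 sorted insertions there (log2 odds ratio -0.46 ± 0.30) and Gse1 20 and 29 (-0.18 ± 0.22). Phf21a held 13 and 9 (0.57 ± 0.33) and Kdm1a 7 and 0 (0.51 ± 0.59). Zmym3 held 24 and 14 (-0.58 ± 0.24), Rcor1 3 and 1 (-1.15 ± 0.74) and Rcor3 none.

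Whether the sorted-over-unsorted change differed between screens was tested as an interaction in edgeR over all 12 libraries. It was fitted on 2569 genes that passed edgeR's filter, which asks for a minimum share of insertions in at least 2 libraries. Of the 9 members 6 passed it. Rcor1, Rcor3 and Zmym2 did not, although the background counts of Rcor1 and Zmym2, 76 and 74, exceeded the 42 of Kdm1a, which passed. A log2 difference above 0 at an adjusted p below 0.05 was found for 131 genes for repressor minus activator (5.10%) and for 142 for repressor minus PTGR (5.53%). Without that filter the shares were 0.598% and 0.603% of 18560 genes. Both comparisons share the repressor libraries, so they are given side by side. Rcor2, Gse1 and Phf21a passed in both. Kdm1a also reached the threshold in both, but it entered the test only through the sorted repressor libraries, where it was high. Its values below are therefore a description, and its p-values cannot serve as a test.

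For Rcor2 the log2 difference was 6.34 ± 0.59 against the activator screen (edgeR adjusted p = 1.40e-12) and 6.30 ± 0.52 against the PTGR screen (edgeR adjusted p = 4.63e-15). For Gse1 it was 4.12 ± 0.65 (edgeR adjusted p = 9.75e-07) and 3.34 ± 0.46 (edgeR adjusted p = 3.43e-08). For Phf21a it was 4.01 ± 0.91 (edgeR adjusted p = 0.000872) and 3.54 ± 0.58 (edgeR adjusted p = 2.28e-06). Each of them passed in both comparisons with each library left out in turn, except Phf21a against the PTGR screen without PTGR unsorted replicate 1 (2.34). Without repressor sorted replicate 1 the Gse1 difference against the PTGR screen was 2.01.

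Kdm1a had a log2 difference of 4.59 ± 1.46 against the activator screen (edgeR adjusted p = 0.0347) and of 4.07 ± 1.11 against the PTGR screen (edgeR adjusted p = 0.0102). Its call was lost with DESeq2 (adjusted p = 0.149 and 0.0609) and without repressor sorted replicate 1, at 4.06 and 3.41, or repressor unsorted replicate 2, at 4.11 and 3.45. It was also lost against the activator screen without activator sorted replicate 1, at 3.25, or activator unsorted replicate 1, at 4.27, or with scaling by library size alone, at 4.17 (edgeR adjusted p = 0.0531), and against the PTGR screen without PTGR sorted replicate 2, at 2.95, or PTGR unsorted replicate 1, at 3.90. Hmg20b did not pass, at 3.43 ± 1.45 (edgeR adjusted p = 0.182) and 0.84 ± 0.96 (edgeR adjusted p = 0.728). Zmym3 did not pass either, at -0.55 ± 0.82 (edgeR adjusted p = 0.825) and -0.69 ± 0.67 (edgeR adjusted p = 0.689).

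Whether a position found in both sorted repressor replicates was 1 integration or more was not tested. At Rcor2 103 positions were in both, 29.7% of replicate 1 and 38.6% of replicate 2, of 511 distinct positions. Kdm1a shared 3, Gse1 5 and Phf21a 3. With all shared sorted positions left out, a setting chosen after seeing the data, the 4 genes were still called, Rcor2 at 5.63 and Kdm1a at 4.27, Gse1 at 2.61 and Phf21a at 3.23. The share of all tested genes called with that setting was not counted. Some Rcor2 positions of the sorted cells were also in the unsorted repressor libraries, 37 of their 71 and 38 of their 59 insertions, against 1 to 12 insertions in each of the other 4 unsorted libraries. These insertions raise the background of Rcor2, since unsorted cells of the repressor screen are part of it.

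A list of 21 known partners and relatives of these proteins was set beside them, of which 20 were in the tables. In the repressor screen 10 were tested, with a median log2 odds ratio of 1.04, and 2 were called, Rest and Zmym4. Rest encodes the zinc finger repressor of neuronal genes that recruits CoREST to DNA. Its sorted replicates held 137 and 36 insertions, or 615 and 237 per 100000, against 57.3 to 69.7 in the unsorted libraries with a median of 59.7 (log2 odds ratio 2.89 ± 0.12, Fisher's exact adjusted p = 3.75e-79). As at Gse1, both values were above all unsorted ones and replicate 1 was the higher. Of the 173 sorted insertions 172 were assigned to exon 2, which begins 9 bases before the ATG.

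Zmym4, a relative of Zmym2 and Zmym3, held 11 and 7 sorted insertions, or 49.4 and 46.0 per 100000, against 9.41 to 20.7 with a median of 12.7 (log2 odds ratio 1.77 ± 0.36, Fisher's exact adjusted p = 0.000251). Its sorted insertions were assigned to exon 3 in 16 of 18 cases, against 57 of 144 in the background. The interaction was positive for Rest in both comparisons, 3.82 (edgeR adjusted p = 1.06e-07) and 3.34 (edgeR adjusted p = 2.10e-08), whereas Zmym4 did not pass in either, 2.63 (edgeR adjusted p = 0.112) and 2.04 (edgeR adjusted p = 0.0739).

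The deacetylase partners gave few sorted repressor insertions. Hdac1 held 1 and 0 against 86 in the background and Hdac2 3 and 1 against 212, and the LSD1 relative Kdm1b held 0 and 0 against 64. The corepressor genes Ctbp1 and Ctbp2 held 3 and 1 against 29 and 6 and 1 against 28 (Fisher's exact adjusted p = 0.219 and 0.00229), and neither was called. Phf21b, the relative of Phf21a, held 2 and 2 against a background of 6 (log2 odds ratio 4.18 ± 0.93, Fisher's exact adjusted p = 0.00321) and was not called. These 6 genes were singled out after their values were seen. No gene of the list was called in the activator screen, where 6 were tested, or in the PTGR screen, where 15 were.

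Other genes with ELM2 and SANT domains, as in the RCOR proteins, formed a second list of 7, all in the tables. None was called in any screen, and of the 7 the repressor screen allowed a test of 4, the activator screen of 3 and the PTGR screen of 5. Over the 4 tested in the repressor screen the median log2 odds ratio was -0.76 and the highest 0.09. The genes of this list with the most sorted repressor insertions were Rere, with 6 and 3, and Mta3, a subunit of the NuRD complex, with 4 and 5.

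The genes whose profile was most like that of Rcor2 over the 12 libraries, among 5887 genes with at least 50 insertions, were Zfp57, Gm6871 and Rybp, with Pearson correlations of log2 insertions per 100000 of 0.989, 0.986 and 0.984. Their sorted repressor replicates held 564 and 520, 92 and 71, and 82 and 52 insertions. The points of these correlations share the depth of each library, and they are a description without a test.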

How the data were processed

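The authors trimmed reads (Trim Galore 0.6.0), aligned them to mm10, used SAMtools 1.9 to drop duplicates, and gave each insertion the closest downstream non-first exon of a protein-coding gene on its strand. They deposited insertion lists, with the exon and the distance in bases of each insertion, and 3 tables with a count per gene. The tables' log2 odds ratios and adjusted p-values, which the authors computed, were not used. Unique positions were counted per library and gene here. The counts equalled the deposited background counts at all 9 genes, and the deposited PTGR sorted counts at 9 of 9 only when repeated lines were counted (4 of 9 with unique positions). In the unsorted repressor lists 50% of lines were repeats.

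Fisher's exact test was run with SciPy 1.17.1 under Python 3.11.15, and edgeR 4.0.16 and DESeq2 1.42.0 under R 4.3.3. The fits within a screen used genes with at least 10 insertions, and the interaction used edgeR's filter instead. The Fisher and edgeR steps were checked on simulated data first. Acceptors were placed on GRCm38.p6 with GENCODE exons (46 of 46 matched). The main edgeR and DESeq2 fits did not pair libraries by replicate number. The alternatives were the background, the distance limit, the minimum count, normalization, the replicate block, DESeq2 and leaving out each library. The genes, lists and tests were chosen with earlier results of these data known. All 9 genes were described; of the 2 lists, the called genes and the 2 with the most sorted repressor insertions were named by rule, 6 further partners after their values were seen, and for Rcor2 the 3 most similar profiles.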

Additional observations from a re-analysis of the deposited data

Results flagged for a closer look

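The change between unsorted and sorted cells differed between screens at 4 genes by the edgeR interaction test. Of these, Kdm1a entered the test only through the sorted repressor libraries. Against the activator screen the log2 difference was 6.341 at Rcor2, 4.591 at Kdm1a, 4.119 at Gse1 and 4.011 at Phf21a. Against the PTGR screen, which was compared with those same repressor libraries, it was 6.297 at Rcor2, 4.065 at Kdm1a, 3.336 at Gse1 and 3.544 at Phf21a.

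Gse1 insertions beyond the 200 kb limit, which the counts per gene leave out, were also enriched in sorted repressor cells, with a log2 odds ratio of 2.581 relative to all insertions beyond that limit.

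PTGR unsorted replicate 2, the shallowest unsorted library, stood apart from the other 5 unsorted libraries at 2 genes by a gap test, with 12.94 insertions per 100000 at Rcor1 and 70.26 at Gse1. These were 2 of 18 sets of gene and strand tested, and chance alone marks about 1 in 20.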

How the results depend on the processing

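The count of members called kept within 1.5 times its value in 159 alternative results and left that range in 1. This was repressor minus PTGR, which ran from 2 to 4 members with 1 library left out, with 2 (Rcor2 and Gse1) without PTGR unsorted replicate 1. The range is a coarse measure. A count of 0, as in the activator, PTGR and reversed screens, was scored as kept while it stayed at 0. A fall from 4 that lost Kdm1a alone also stayed within the range. Kdm1a lost its interaction call in 6 of 17 alternatives against the activator screen and in 5 of 17 against the PTGR screen. Rcor2 and Kdm1a stayed called in the repressor screen under all 21 alternatives, and Gse1 and Phf21a under 20 each. Values that changed sign were those of genes not called: Gse1 in the PTGR screen was 0.084 with a limit of 50 kb and ran from -0.50 to 0.10 with 1 library left out, Zmym3 repressor minus activator ran from -1.98 to 0.095, and Hmg20b repressor minus PTGR from -1.29 to 1.45. The cause was not tested. Where 1 library was left in a group, it was assumed to vary like the others. With activator sorted replicate 1 left out no sorted activator insertion remained at Phf21a, and the fitted difference of 10.03 is then no measure of size; the same holds at Kdm1a for 9.66 without activator sorted replicate 2 and 9.72 without PTGR sorted replicate 1. Phf21a could not be fitted in the interaction at 50 kb.

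Same-numbered libraries had correlated deviations of 0.02, 0.05 and 0.23 in the repressor, activator and PTGR screens, so the numbers were not taken to pair them. With the replicate block edgeR called 4 members in the repressor screen, 0 in each of the other screens, and 178 genes in place of 198, and 4 members in each interaction. Zmym4 lost its call in that fit (edgeR adjusted p = 0.0537). Depth limits Rcor1, Rcor3 and Zmym2, with at most 5 sorted repressor insertions each.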
